A study of Canis lupus familiaris with 109 samples.

Results

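In vertebrate genomes most CpG dinucleotides carry methylated cytosines, whereas CpG islands, which often hold promoters, are kept free of methylation. DNMT enzymes add and copy the mark, TET enzymes oxidise it, and histone H3 methylated at lysine 4 repels the de novo DNMTs. The strip where an unmethylated island meets its methylated surroundings is called the shore, and it is there that the level must change over a stretch of DNA. The runs described here are stretches in dog whole blood that held both unmethylated and methylated listed positions. Whether they lie at the edges of CpG islands was not tested.

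The data were methylation fractions from capture of chosen genomic regions followed by bisulfite sequencing, in which unmethylated cytosines are read as thymine. The labels list 109 blood DNA samples of dogs of both sexes, with no treatment. They assign 94 samples, aged 0.134 to 14.5 years with a median of 6.37 years, to the main table of fractions. A further 6 samples were repeat captures, aged 0.384 to 15.5 years with a median of 5.51 years. Of the rest, 1 sample, aged 15.5 years, belonged to an earlier capture in the same repeat table, and 8 were set apart for low coverage. Each repeat capture had the same age as a main-table sample or as the earlier capture. The main table has 95 library codes, the repeat one has 7, and no code matches a label, so no library could be given an age or a sex. Whole blood is a mixture of leukocytes, and a fraction between 0 and 1 can come from a mixture of cells or of alleles, which cannot be told apart here. No read counts accompany the fractions, so the depth behind each value is unknown.

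A run was a series of at least 10 listed positions on 1 chromosome with gaps of up to 100 bp. A position was called low when its median over the 95 libraries was under 0.1, high when it was over 0.8, and otherwise between. A run crossed a border when it held at least 2 low and at least 2 high positions. This held for 75 of 7274 runs, or 1.03%. These medians were those of the values as deposited. For the levels and places below, each 1.0 at a position whose median was under 0.05 was replaced by 0.01. This touched 1906 of 165870 cells in these runs, or 1.15%. The same medians chose the runs, so the classes, widths and counts that follow are descriptions and were not tested.

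The 75 runs lay on 27 chromosomes. Among them were 9 of the 449 runs of all kinds on chromosome 9 and 8 of 464 on chromosome 1. Chromosome 5 had 8 of 366 and chromosome 24 had 5 of 191. The 75 runs were longer than runs in general, with a median of 307 bp (72 to 2024) against 184 bp, and held a median of 18 positions against 16. Of their 1746 positions, 869 were low, 600 between and 277 high. Positions between the classes made up 34.4% of these runs and 9.33% of all other runs. Low positions made up 49.8% and 79.3%, and high positions 15.9% and 11.4%. At the threshold, 11 runs had exactly 2 low positions and 22 exactly 2 high positions. Just outside, 64 runs had enough low positions but a single high one, and 27 the reverse. The second highest median was 0.81 in the nearest run inside and 0.8 in the nearest outside, and the second lowest 0.09 and 0.1.

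The class changed once in 73 of the 75 runs: 41 went from low to high along the chromosome and 32 from high to low. The level stepped up within a short distance. In the 25 bp before the middle of the border the median level of a position was 0.3, and in the 25 bp after it 0.76. At 50 to 75 bp before the middle it was 0.05, and at 25 to 50 bp after it 0.85. Beyond 100 bp on the low side the median was 0. The high side was less even, with medians from 0.8 to 0.88 between 100 and 300 bp. At 300 to 400 bp it was 0.58, from 14 positions in 3 runs.

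**Figure D1:**
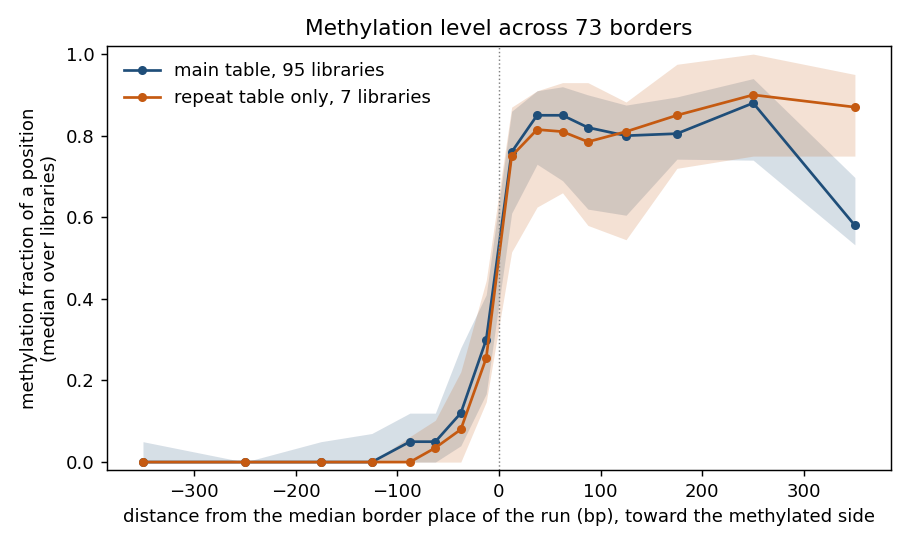
Methylation fraction of positions (vertical axis) by distance in bp from the median border place of their run (horizontal axis, positive toward the methylated side). Points are medians over positions in a bin and shaded bands their quartiles, for positions of the main table (blue) and positions that only the repeat table lists (orange). Both rise across the middle, from 0.3 to 0.76 in the main table and from 0.255 to 0.75 in the repeat table.

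The transition, from the last low position to the first high one, had a median width of 94 bp, with quartiles of 61 and 153 bp. It was at most 50 bp in 14 runs, 50 to 100 bp in 24, 100 to 200 bp in 25 and over 200 bp in 10. The narrowest spanned 29 bp and the widest 1080 bp. The width took a median of 32.5% of the length of its run. These widths were limited by where positions were listed. A median of 3 positions lay inside a transition, and 12 transitions, 43 to 94 bp wide, held none, so their true width may be anything up to that distance.

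The width was also read inside each library, as the distance between the levels 0.25 and 0.75 on a line that was not allowed to fall. The median over runs was 57.6 bp within a library. In the profile of medians it was 63.6 bp over the 65 runs where it could be read. The ratio of the library width to the profile width had a median of 1.01, with quartiles of 0.979 and 1.04, and the library width was the smaller in 30 of 65 runs. In most of these runs the widths thus differed by a few percent. The profile was one of medians and not of averages. A median over libraries that step sharply at different places can itself be sharp. The comparison therefore cannot show whether libraries step at the same place.

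Not all borders were smooth ramps. In 32 of 73 runs at least 1 position lay over 0.2 away from a rising line fitted to the medians. Listed positions were also sparser in the transition. Their median spacing was 25.7 bp there, 13.1 bp on the low side and 15.5 bp on the high side, against 11.2 bp over all runs. The transition had the widest spacing of the 3 zones in 50 of 73 runs, and the low side was denser than the high side in 43. The zones were cut by the medians themselves, and a wide gap is more likely to be where a class changes, so the spacing is a description.

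Spread between libraries at intermediate positions was close to that at positions of the same level in other runs. The range from the 10th to the 90th percentile of libraries was 0.306 at member positions with medians of 0.3 to 0.5 and 0.31 at such positions of other runs. For medians of 0.1 to 0.3 it was 0.246 and 0.236, and for 0.5 to 0.8 it was 0.272 and 0.291. High positions were somewhat more spread in the border runs, at 0.17 against 0.13, and low positions too, at 0.026 against 0. Where both strands of a CpG were listed inside a transition, their medians differed by a median of 0.01 over 47 CpGs, against 0.02 over 1853 intermediate CpGs of other runs.

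The place of the border in a library was taken as the point where its fractions, fitted with a line that may not fall, crossed 0.5. It is given in bp from the last low position, positive toward the methylated side. A place was found in 6900 of 6935 combinations of run and library. Over libraries the interquartile range of place had a median of 7.41 bp per run, with quartiles of 4.44 and 17 bp. It was at most 5 bp in 23 runs, at most 10 bp in 46, at most 20 bp in 58 and at most 50 bp in 69 of 73. The full range from the lowest to the highest library was wider, with a median of 62.2 bp. Of all places, 79% lay within 10 bp of the median of their run, and 98.4% lay inside the transition.

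**Figure D2:**
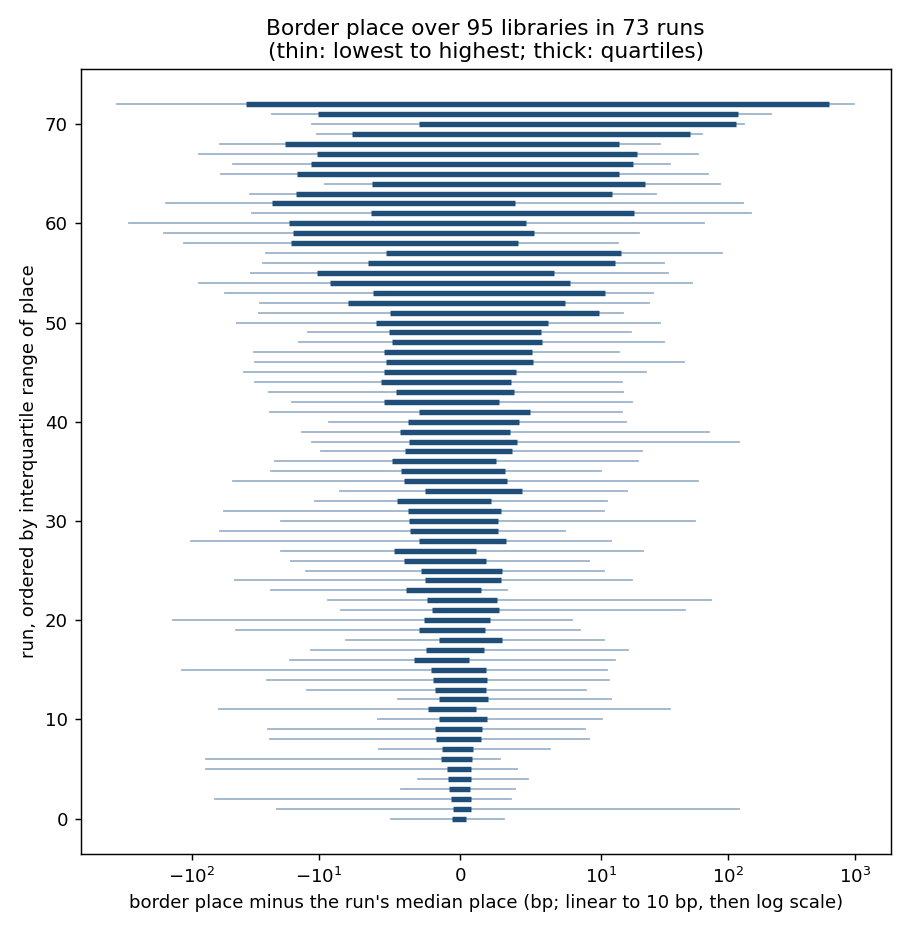
Border place in 95 libraries for 73 runs, each a row ordered by interquartile range. The horizontal axis gives place minus the median of the run in bp, linear to 10 bp and logarithmic beyond; thin lines run from the lowest to the highest library and thick lines between the quartiles. In 46 runs the interquartile range is at most 10 bp, and 4 runs at the top exceed 50 bp.

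In most runs the majority of libraries had their place inside a single gap between listed positions. A median of 86.3% of libraries had their place between the same 2 neighbouring positions, which were a median of 33 bp apart, and in 34 runs over 90% did. Within a gap the crossing point is set by the levels of the positions on either side, so a shift of some bp there is a shift in level and not an observed move. When the border was instead a single step between 2 listed positions, chosen by least squares, the interquartile range was 0 bp in 49 of 73 runs, and the median over runs was 0 in place of 7.41 bp. Runs with wider transitions had more spread: the median interquartile range was 13.8 bp for widths over 94 bp and 5.83 bp for the rest.

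Some extreme places came from single values of 1.0. Among 152 positions of these runs with medians of 0.05 to 0.1, which the change to 0.01 left alone, 70 held such a value in some library, in 113 cells altogether. When these were replaced too, which was decided after the data were seen, the median range of place was 46.7 bp in place of 62.2 bp. The interquartile range had a median of 7.37 bp, and 85 places in place of 107 lay outside the transition.

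The runs named here are the extremes of width, spread and number of positions. A sharp border lay on chromosome 1, at chr1:107596946-107597761, with 57 positions in build CanFam3.1. Its 47 low positions had a library mean of 0.0136 (median; 0.00106 to 0.053 over libraries) and its 8 high positions one of 0.913 (0.843 to 0.988). The last low position had a median of 0.04 and the first high one, 47 bp on, a median of 0.92, with none listed between. Every library had its place in this gap, from 22.2 to 30.02 bp. At the far end of the same run the level was above 0 again, with medians of 0.31 and 0.18 at -654 and -618 bp.

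A run on chromosome 26, at chr26:7400721-7400965, had the same shape with 11 positions. Its 6 low positions had a library mean of 0.01 (0 to 0.167) and its 5 high ones a mean of 0.904 (0.838 to 0.95), 45 bp apart with none between. The interquartile range of its place was 1.38 bp. In 4 libraries the place lay before the last low position, and the lowest was at -41.5 bp. The same number of libraries had the value 1.0 at that position, whose median was 0.05. With these set to 0.01 the lowest place was 18.5 bp.

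The narrowest transition, 29 bp, was in chr5:60298834-60298931. Its medians ran 0.09 at the last low position, 0.12 at 10 bp and 0.97 at 29 bp. All libraries stepped in the gap between the last 2 of these, with places from 17.3 to 25.4 bp. The methylated stretch was itself short: medians were 0.95 at 38 bp, 0.81 at 43 bp and 0.22 at 59 bp, the last position of the run. On chromosome 9, chr9:52058995-52059308 stepped within 48 bp, from a library mean of 0.045 over 6 low positions to 0.897 over 6 high ones, with places from 13.9 to 39.7 bp.

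The smallest spread among runs with 3 or more positions of each class was in chr3:40169338-40169888. Its interquartile range was 1.32 bp, although its transition was 254 bp wide. Crossing points of 0.4 and 0.6 had larger interquartile ranges, of 11.3 and 108 bp, and a least-squares step one of 0 bp. The profile rose past 0.5 in a gap of 4 bp, in which 85.3% of libraries had their place, and then fell back before rising again.

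Of the 3 named runs with the largest spread, those on chromosomes 14 and 10 had a level that rose, fell and rose again. In chr14:20642579-20642986 the median was 0.17 at 87 bp, 0.75 at 101 bp, 0.31 at 162 bp, 0.85 at 174 bp, 0.3 at 186 bp and 0.86 at 238 bp. In 49 libraries the border was placed at the first rise, between 87 and 101 bp. In the remaining 46 it was placed at a later rise, 6 of them between 162 and 174 bp, 12 between 196 and 216 bp and 28 between 216 and 238 bp. The interquartile range was 119 bp at level 0.5, but 5.46 bp at level 0.4 and 21.1 bp at level 0.6. For a least-squares step it was 0 bp.

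In chr10:26104470-26105061 the median was 0.01 at the last low position, 0.75 at 79 bp, 0.41 at 160 bp, 0.5 at 213 bp, 0.78 at 289 bp and 0.92 at 304 bp. The place fell before 79 bp in 63 libraries and beyond it in the others, with an interquartile range of 131 bp at level 0.5, 12.8 bp at level 0.4 and 168 bp at level 0.6. As a single least-squares step, its place had an interquartile range of 0 bp.

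The widest transition and the most positions were in chr17:61096287-61098310, with 123 positions, of which 29 were low, 3 high and 91 between. Its width of 1080 bp held 60 positions. The level climbed slowly, from a median of 0.08 at -416 bp to 0.43 at -2 bp. The last low position, with a median of 0.08, stood alone: its neighbours on either side had medians of 0.43 and 0.5. Much of the climb thus came before the transition as defined here. From the last low position to the first high one most medians lay between 0.4 and 0.7, such as 0.66 at 133 bp, 0.53 at 502 bp and 0.64 at 1038 bp. In 67 libraries the place was at most 160 bp and in 28 over 400 bp, with a lowest place of -306 bp and a highest of 1062 bp. The interquartile range was 667 bp at level 0.5, 55.2 bp at 0.4, 361 bp at 0.6 and 189 bp for a step. Its positions recurred at a fixed distance: 49 of 123, or 39.8%, had a partner exactly 69 bp further on. That share ranked 33 among 1160 runs of 30 or more positions, whose median was 23.1%.

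The run with the next most positions was chr12:1499305-1499875, with 72. Its transition of 296 bp held 43 positions, most of them at medians of 0.1 to 0.4, in a long plateau. The last position before the step had a median of 0.39 and the next, 17 bp on, 0.84. The place lay in that gap in 62.1% of libraries, but it reached down to -29.6 bp in others. Its low positions also differed most between libraries among the named runs, with library means from 0 to 0.441.

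**Figure D3:**
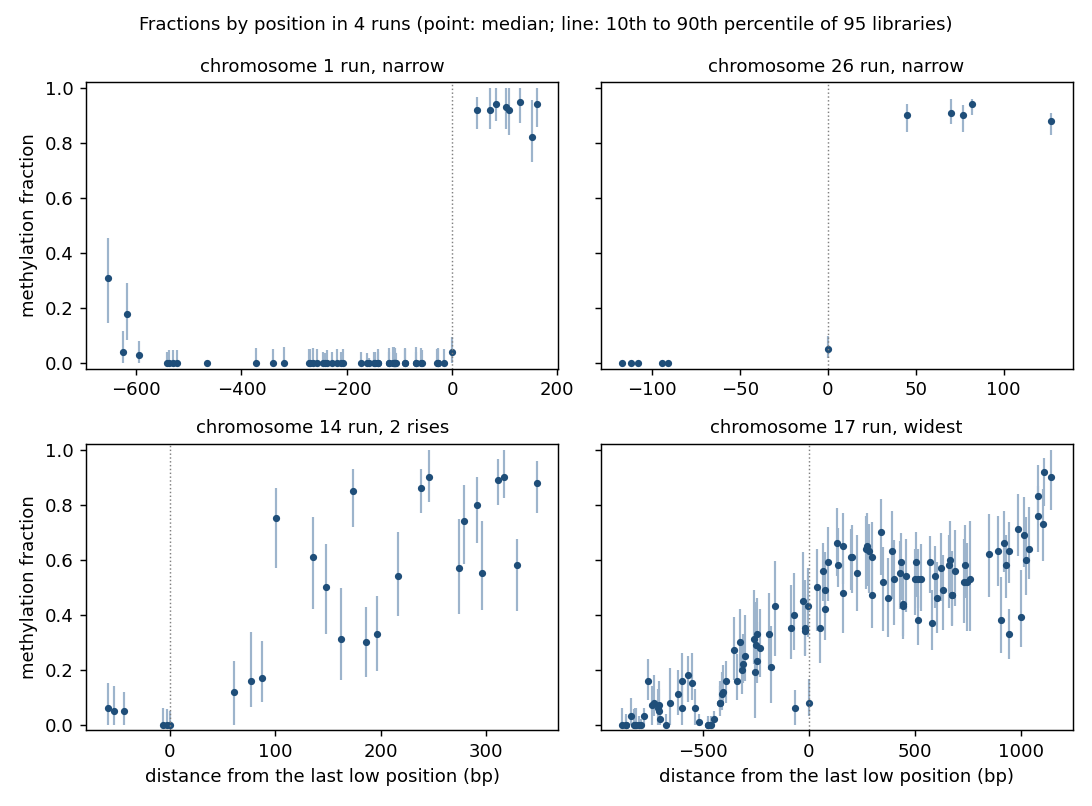
Methylation fraction (vertical axis) by distance in bp from the last low position (horizontal axis) in 4 runs. Points are medians and vertical lines the 10th to 90th percentile of 95 libraries. The runs on chromosomes 1 and 26 step once across an empty gap of 47 and 45 bp, and the run on chromosome 14 rises, dips and rises again. The run on chromosome 17 climbs slowly, much of it before its last low position, and shows no steady rise over most of its transition of 1080 bp.

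Further runs, picked here after their values were seen, lay between these shapes. Wide transitions differed in their interquartile range of place, which had a median of 7.41 bp and an upper quartile of 17 bp over all runs. Some libraries could also lie far off. In chr9:19209510-19209837 the transition was 230 bp wide and held 5 positions, and the interquartile range of place was 7.68 bp. Its median place was 56.4 bp, but the 90th percentile of libraries was 165 bp. In chr6:42605389-42605657, with 221 bp and 5 positions, the interquartile range was 20.6 bp. The 10th percentile there was 54.1 bp and the median 160 bp. In chr11:5020487-5020945, with 237 bp and 9 positions, the interquartile range was 15.4 bp, and the 10th and 90th percentiles were 166 and 193 bp. In chr10:47400050-47400603, by contrast, 25 positions lay in a transition of 212 bp and the interquartile range was 58.1 bp, the largest after the chromosome 17, 10 and 14 runs named above.

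Transitions with no position between gave small interquartile ranges of place in the runs picked here. Of these, chr15:18705571-18705936 had 17 low and 3 high positions, 44 bp apart, and an interquartile range of place of 1.73 bp. In chr14:40354400-40354825 the classes, with 21 and 5 positions, were 94 bp apart, and the interquartile range was 2.21 bp. In chr17:21198583-21199074, with 9 low and 7 high positions 57 bp apart, it was 6.19 bp. In most libraries of these runs the place was interpolated across the empty gap, from the levels on both sides. Some places lay before the last low position, with a lowest of -56.1 bp in the chromosome 15 run and -85.2 bp in this chromosome 17 run.

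In each of the 2 runs in which the class changed 3 times, a single low position came after high ones and was followed by a high one. In chr11:51144518-51144788 the median went from 0.01 to 0.89 within 72 bp and was 0.88 at the next position. It then fell over 71 bp, through 0.71, 0.72, 0.65 and 0.5, to 0.07 at the single low position. The position after that, the last of the run, had a median of 0.86. The low position ranged from 0 to 1 over libraries and was over 0.5 in 7 of them. In chr12:2729908-2730650 the single position had a median of 0.07 between neighbours of 0.7 and 0.95, and was over 0.5 in 1 library. A high position of the same run ranged from 0 to 1, with 74 libraries over 0.5.

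Libraries did not shift all borders together by much. The offset of a library, its median deviation over runs from the median place, lay between -2.21 and 2.14 bp. Across pairs of runs, the correlation of their places over the 95 libraries had a median of 0.0106, and 16 of 2628 pairs exceeded 0.4 in size. These points share their libraries. The 10 groups of codes with the same first element had median offsets from -0.319 to 0.276 bp. The 16 libraries with A1, A3 or A4 as second element had a median offset of 0.000234 bp, against 0 for the others. The only 2 runs within 5000 bp of each other, chr1:100633298-100633631 and chr1:100638205-100638338, faced opposite ways, with 4573 bp between them and a correlation of places of -0.00332.

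The small offset of the 0.5 crossing was lower, that is, nearer the low side, in libraries with higher methylation elsewhere. Against the mean fraction at positions of median 0.1 to 0.8 in runs that crossed no border, which ranged from 0.427 to 0.479, Pearson's r was -0.514 and Spearman's rho -0.52 over 95 libraries. The permutation p was 1e-05 for both, the smallest that 100000 two-sided permutations can give, and 3e-05 after Benjamini-Hochberg adjustment over 3 relations. Leaving out the 2 libraries with the most extreme mean fraction gave r = -0.524. It was negative within each of the 10 code groups, from -0.786 to -0.21. With low positions elsewhere r was -0.261 (permutation p = 0.01, adjusted 0.016; rho = -0.314, p = 0.0022) and with high positions -0.181 (permutation p = 0.081; rho = -0.143, p = 0.17). Without the 2 farthest libraries these were -0.294 and -0.173, and within code groups they ranged from -0.732 to 0.32 and from -0.949 to 0.871. For borders placed as a least-squares step, r was -0.0669 (permutation p = 0.52). There the offset of a library was a mean over runs and not a median, because a step takes whole gaps. The relation was therefore seen in the crossing of level 0.5. The mean over steps is an unlike measure, so it cannot decide whether the gap that held the step was related too.

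**Figure D4:**
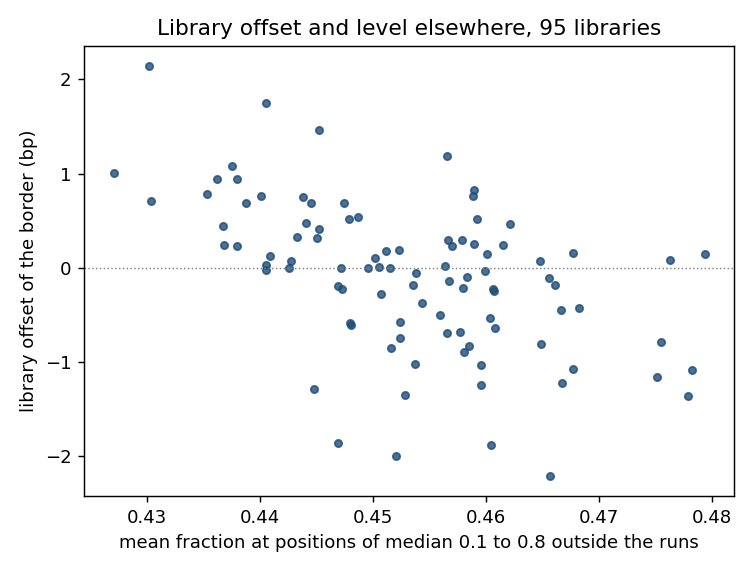
Offset of the border in bp (vertical axis) against the mean fraction at intermediate positions outside the border runs (horizontal axis), 1 point for each of 95 libraries. Offsets between -2.21 and 2.14 bp fall as the mean fraction rises from 0.427 to 0.479.

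The repeat table holds 6 libraries with code numbers 1, 5, 6, 7, 8 and 10, each of which also occurs in a code of a pilot series. The pilot libraries of 5 of these numbers are in the main table, but that of number 1 is the seventh library of the repeat table, so both libraries of number 1 come from 1 table. How libraries of a shared number compare played no part in choosing the runs. Of the 1746 positions, 1517 had a value in all 12 libraries, and 65 runs gave a place in each on those positions. The mean difference of place was 8.77 bp between libraries of the same number and 11.2 bp over all 720 ways to pair them (exact permutation test over pairings, two-sided, p = 0.00278, where 0.00139 is the smallest possible). Medians were 3.73 bp for the same number and 5.39 bp for other numbers, and 53 of 65 runs were closer than the mean of their pairings. The same-number median was the smaller for each of the 6 numbers, from 2.79 against 5.51 bp for number 5 to 4.74 against 5.25 bp for number 6. With a step in place of the crossing the values were 8.37 and 10.3 bp (exact permutation p = 0.00417). Without number 1 the means were 9.18 and 10.9 bp (exact permutation p = 0.0167), and leaving out each number in turn gave exact permutation p from 0.00833 to 0.0167. The labels name repeat captures, but no code ties these pairs to them, and 2 libraries of one animal cannot be told apart from other ways of sharing a number.

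Run by run, 9 of 65 borders were closer at an unadjusted exact permutation p under 0.05, or 13.8%, and 0 farther. None passed after Benjamini-Hochberg adjustment, where the smallest value was 0.203. The smallest unadjusted p was in chr2:10823701-10823876, with means of 2.4 bp for the same number and 9.7 bp over pairings (exact permutation p = 0.0111, adjusted 0.203). In the run on chromosome 14, the places in the pilot and the repeat library were 219 and 218 bp for number 1, 95 and 96.4 bp for number 5, and 89.5 and 94.9 bp for number 6. They were 96.9 and 95.3 bp for number 7, and 94.4 and 93.4 bp for number 8. Number 10 differed, with 98.0 and 202 bp. Number 1, whose libraries share a table, was thus at the later rise in both, and 4 numbers were at the first rise in both. Whether number 1 agrees for that reason was not tested. The mean was 19.2 bp for the same number and 47.7 bp over pairings (exact permutation p = 0.0181, adjusted 0.203).

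The run on chromosome 12 with 72 positions had means of 55.4 and 98.9 bp (exact permutation p = 0.0194, adjusted 0.203). Number 8 was low in both of its libraries, at 112 and 116 bp, and 4 other numbers were between 273 and 342 bp in both. Number 7 had 261 and 0.595 bp. In contrast, the run on chromosome 10 had 57 bp for the same number and 53.4 bp over pairings (exact permutation p = 0.878). Among the sharp runs, the places on chromosome 1 lay between 29.6 and 40.9 bp in all 12 libraries, on the shared positions. On chromosome 26, 11 libraries lay between 34.6 and 38.4 bp, and the main-table library of number 8 at -41.7 bp.

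**Figure D5:**
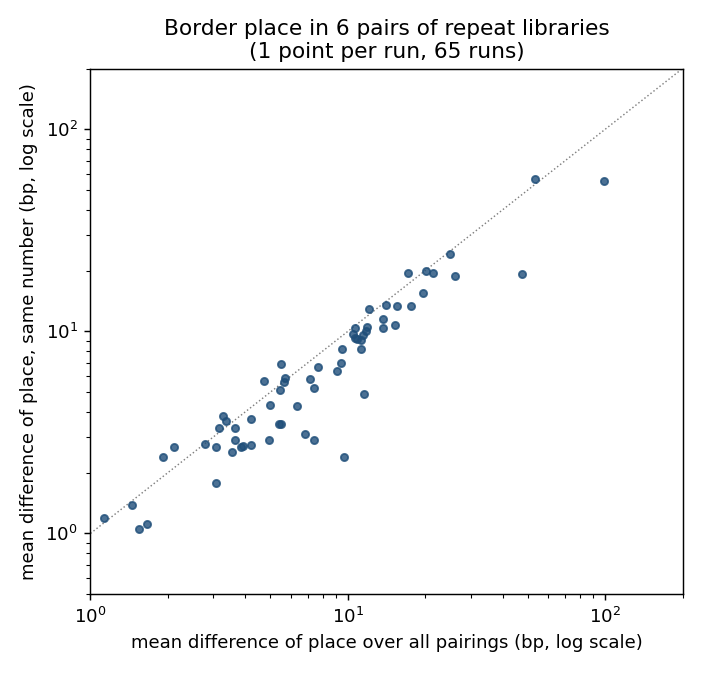
Mean difference of border place in bp between libraries of the same number (vertical axis) against the mean over all pairings of 6 and 6 libraries (horizontal axis), both logarithmic, 1 point for each of 65 runs. The dotted line marks equal values; 53 runs lie below it.

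The level of a run, its mean fraction, was tested in the same way over all 7163 runs with enough positions. Libraries of one number were closer at an unadjusted exact permutation p under 0.05 in 21 of 75 border runs, or 28%, against 11% of all runs tested. Among runs that crossed no border but had a median level of 0.1 to 0.8 the share was 31.3% of 876, so the border runs were near the background of runs at intermediate levels. None of the 7163 passed after Benjamini-Hochberg adjustment, where the smallest value was 0.273. The count among border runs was 6 without number 10, or 8%, against 6.39% of all runs. With values as deposited it was 15, or 20%, against 12% of all runs.

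The repeat table also lists positions that the main table does not, and these were not used to choose the runs. They followed the same borders. On the low side, 693 such positions in 69 runs had a median of 0, and 87.9% were under 0.1. Inside the transitions 278 positions in 51 runs had a median of 0.33, and 76.6% were between 0.1 and 0.8. On the high side, 236 positions in 55 runs had a median of 0.83, and 54.7% were over 0.8. In 36 of the 41 runs with such positions in all 3 zones, the level in the transition lay between those of the sides. Only 3 of the 12 empty transitions gained positions, 8 in all, with medians from 0.1 to 1.

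The levels went on past the ends of the runs. Within 500 bp beyond the low end, 2354 positions had a median of 0 and 95% were under 0.1. Within 500 bp beyond the high end, 353 positions had a median of 0.91 and 70.8% were over 0.8. Repeat-table positions were thus far fewer on the methylated side. With every repeat-table position in the runs, a median of 28 in place of 18 per run, the class changed once in 61 of the 73 runs, at least 3 times in 1 and never in 11, and the median width was 87 bp. On the shared positions, 53 of the 75 runs held at least 2 low and at least 2 high positions by medians over the 6 repeat captures alone. Over all 7 libraries of the repeat table, 48 did. The limits on gaps and on the number of positions were not applied again, and 67 runs kept 10 or more positions in the repeat captures.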

How the data were processed

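Fractions of methylated reads per cytosine position and library, rounded to 2 decimals, were deposited by the authors. Per the labels' protocols, DNA from whole blood was extracted with a kit or phenol chloroform, sheared, bisulfite converted and captured with the Roche SeqCap Epi protocol. Per the submitters' processing notes, the tools listed, without roles, were Bismark 0.14.3, Bowtie2 2.1.0 and Trim Galore, and the build was CanFam3.1. Read counts were not used here, so depth is unknown. Cells with more than 2 decimals, 0.654% of those in the border runs and up to 22.4% of a library, appear filled in by a step not given in the sources used here, and were kept. In all, 102 rows of per-library values are tied to no sample, and values over libraries are given as ranges, medians and quartiles.

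Runs, classes, monotone fits, places and exact tests over the 720 pairings were computed with Python 3.11.15 and NumPy 2.4.6, and tested on simulated data. The named runs are those with 1 change of class and, with at least 3 positions of each class, the 3 largest and 3 smallest interquartile ranges of place; the 3 widest transitions; the 3 narrowest with at least 5 positions of each class; and the 2 with the most positions. The runs on chromosomes 11 and 12 with 3 changes were added as a count of 2, and a few further runs after their values were seen. The members, lists and settings were chosen with earlier results of these data known. Coordinates are the first number in the table headers and may be off by 1 bp. Genome sequence and gene annotation of this build, and the planned motif counts, were not used here. Alternatives are given in the closing section.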

Additional observations from a re-analysis of the deposited data

How the results depend on the processing

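The number of border runs depended most on the definition. It was 156 with class boundaries of 0.2 and 0.7, 30 with 0.05 and 0.9, 26 with gaps of up to 50 bp, 146 with gaps of up to 200 bp, 44 with 3 positions of each class, and 49 with medians over the 7 repeat-table libraries in place of 75. The median width was 72 bp with boundaries of 0.2 and 0.7, 101 bp on repeat-table medians at shared positions and 87 bp with all repeat-table positions. The median interquartile range of place was 0 bp for a step and 6.23 bp in runs with 3 or more positions of each class. Border runs closer in level within a number were 6 to 14 when each number was left out, or 8% to 18.7%. The share of all runs was then 5.72% to 6.95%, so it was also below the 11% of the main setting. The relation of the offset to the level elsewhere had r of -0.0669 for a step, with the offset taken as a mean over runs in place of a median. In all, 31 alternatives to these summaries counted as unchanged. For counts this meant within 1.5 times the main value, and for widths and spreads within the SD over libraries. For tests it meant the same direction and side of the p threshold. Among them, the number of border runs with values as deposited was the main count itself, as the runs were chosen on those values. Among 81 alternatives for single named runs, 23 moved the interquartile range by more than 1.5 times. Places cannot be resolved below the gap between listed positions, and the depth that limits each fraction is unknown.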
